A study of Homo sapiens with 12 samples.

Results

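CHTF18 and CUL2 are 2 of the 543 genes repressed, singly and in pairs, in a pooled CRISPR interference screen of K562 cells, a human leukaemia line. CRISPR interference uses a catalytically dead Cas9 fused to a repressor, which an sgRNA directs to a promoter to lower transcription. Each lentiviral construct carried 2 sgRNAs, and the 1301881 constructs joined 1141 sgRNAs, 55 of them non-targeting, in both orders. The members were chosen by the gene name of the sgRNA: 4 sgRNAs, 2 per gene, present in 9112 constructs, of which 4560 carried a CHTF18 sgRNA and 4560 a CUL2 sgRNA. The other subunits particular to the CHTF18 loader, DSCC1 and CHTF8, had 0 sgRNAs in the library and were not analysed here. The gene pair was proposed with results of these libraries known, so the single phenotypes of CHTF18 and CUL2 and their mutual pair are given as descriptions, with no test of their size. Their single phenotypes were tested only for a difference between the screens.

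The libraries came from 3 groups in each of 2 screens, with 2 replicate cultures per screen. Niraparib cells, exposed to this inhibitor of PARP1 and PARP2, received 2 µM in the 2022 screen, had it removed after 3 days and were collected at day 18. For the 2023 screen the dose of 2 µM became 3 µM from day 2, the exposure lasted 4 days and collection was at day 19. Reference cells received the vehicle, DMSO, and were harvested with the niraparib cells, and T0 cells were taken on day 9 after transduction, before dosing. All groups carried the same library, and both arms of a replicate descend from the culture that gave its T0 library, so a replicate number pairs its 3 libraries. K562 is a single line, knockdown of the transcripts was not measured in these files, and dose, exposure, harvest day and the RNase step of the DNA extraction all differed between the screens and cannot be told apart.

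CHTF18 is the large subunit of an alternative clamp loader, which shares RFC2 to RFC5 with the canonical loader built on RFC1 and places the sliding clamp PCNA on DNA. This loader binds the leading-strand polymerase epsilon and is known for roles in sister chromatid cohesion and in activation of the replication checkpoint. CUL2 is the scaffold of a family of cullin-RING ubiquitin ligases, with elongins B and C and exchangeable substrate receptors. These receptors include VHL, which marks hypoxia-inducible factors for degradation, and LRR1, which directs removal of the replicative helicase when forks converge. Cullins are activated by attachment of NEDD8, switched off by the COP9 signalosome, and have their receptors exchanged by CAND1.

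In the RefSeq annotation of GRCh38.p14, CHTF18 lies on chromosome 16 at 788620 to 798074 on the plus strand. The nearest protein-coding gene to its start is RPUSD1, at 784974 to 788381, and the nearer edge of that span lies 239 bases away. CUL2 lies on chromosome 10 at 35008551 to 35127006 on the minus strand, and CREM overlaps the end of that span where the longest CUL2 transcripts begin. The sgRNA names place the CHTF18 sgRNAs at 838671 and 838687, 16 bases apart, and the CUL2 sgRNAs at 35379233 and 35379251, 18 bases apart, on a build that the sources used here do not name. Both sgRNAs of each gene therefore target almost the same stretch, and effects on neighbouring genes were not measured. Because the sgRNAs act on promoters, the 250 bases before an annotated start of each gene are shown, with CCAAT or its complement ATTGG in capitals. They are read on the gene's strand from the RefSeq promoter table, at chr16:788370-788619 for CHTF18 and at chr10:35090615-35090864, the first of 3 listed starts, for CUL2.
CHTF18: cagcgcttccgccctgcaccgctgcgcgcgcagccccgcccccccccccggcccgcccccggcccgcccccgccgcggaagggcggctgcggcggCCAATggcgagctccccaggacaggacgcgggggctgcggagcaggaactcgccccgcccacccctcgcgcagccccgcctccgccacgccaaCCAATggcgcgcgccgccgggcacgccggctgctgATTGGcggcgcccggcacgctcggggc
CUL2: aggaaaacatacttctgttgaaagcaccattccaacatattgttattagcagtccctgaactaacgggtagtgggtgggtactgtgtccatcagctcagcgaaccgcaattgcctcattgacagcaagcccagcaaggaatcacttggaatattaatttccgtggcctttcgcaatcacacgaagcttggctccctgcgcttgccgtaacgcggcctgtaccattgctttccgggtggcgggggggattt
The CHTF18 window held 3 matches and the CUL2 window 0. Of the 35116 windows of this length in the table, 32.0% held at least 1 match and 2.93% held 3 or more.

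Sequencing depth was high but uneven between screens: 182.6 to 334.6 megareads per niraparib library, 187.2 to 460.7 megareads per reference library and 221.8 to 325.9 megareads per T0 library. The median construct had 100 to 258 reads. Reads are PCR products without molecular identifiers, so precision rests on the spread between the 4 cultures. The tests have terms for the screens, so their p-values rest on the spread between replicates within a screen. Each SD over 4 cultures also holds the difference between screens. The reference library of 2022 replicate 1 stood apart from the others. Over the 543 genes, the SD of growth in replicate 1 minus replicate 2 was 0.0339 in the 2023 screen and 0.151 in the 2022 screen. That 2022 difference followed the niraparib response of the 2023 screen, with which it shares no library (Pearson r = 0.661 across genes, which are not independent replicates). The corresponding r for the 2023 difference was 0.076. For the change of niraparib cells from T0, which uses no reference library, r was 0.54 in 2022 and -0.233 in 2023. Its SD between replicates was 0.0424 in 2022 and 0.0378 in 2023. The size of the 2022 difference thus sets the reference library apart, and r alone does not. The single phenotypes, the mutual pair and the counts of partners are given with and without this culture, and the library's part in the other results was not tested.

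Single knockdown of either gene depleted cells in both arms. Single phenotypes rest on the 220 constructs that pair a gene's sgRNAs with non-targeting sgRNAs, scaled to the 3025 constructs with non-targeting sgRNAs only. Construct abundance relative to non-targeting constructs, for 2022 replicates 1 and 2 and then 2023 replicates 1 and 2, was 0.438, 0.450, 0.451 and 0.444 for CHTF18 in niraparib cells. It was 0.475, 0.633, 0.637 and 0.655 in reference cells and 0.864, 0.865, 0.871 and 0.888 at T0. The niraparib, reference and T0 libraries of CHTF18 did not overlap, and CHTF18 constructs were already below non-targeting constructs at T0. CUL2 abundance was 0.616, 0.625, 0.577 and 0.583 in niraparib cells, against 0.582, 0.731, 0.662 and 0.672 in reference cells and 1.06, 1.07, 1.04 and 1.04 at T0. For CUL2 the niraparib and reference ranges overlapped through 2022 replicate 1, and T0 lay above non-targeting constructs.

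**Figure D1:**
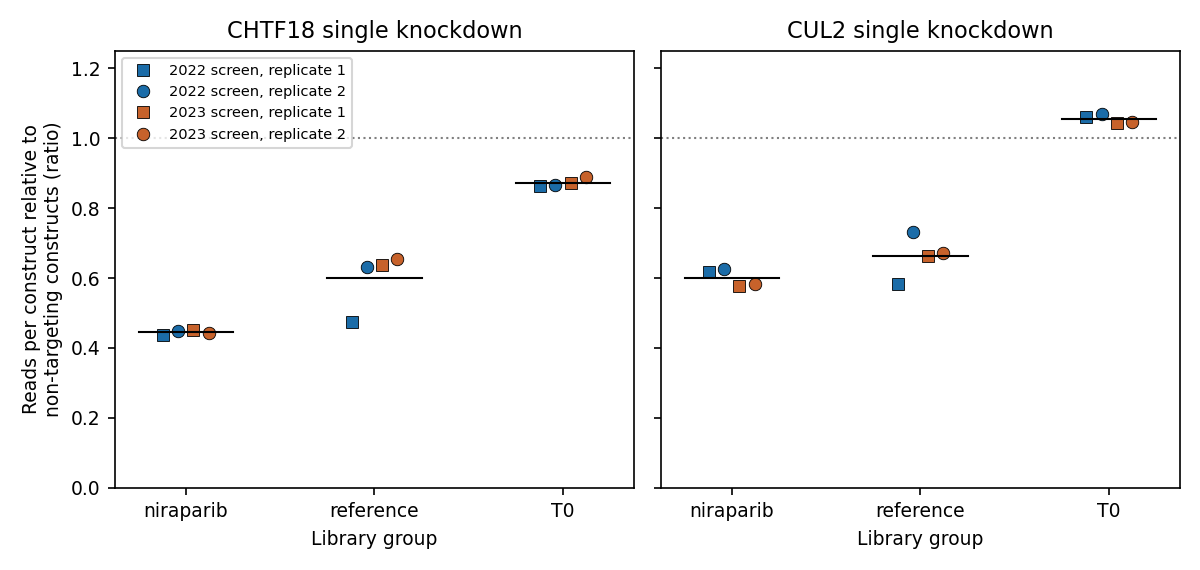
Reads per construct of CHTF18 (left) and CUL2 (right) paired with non-targeting sgRNAs, relative to non-targeting constructs, in each of the 12 libraries. Lines are means of 4 cultures and the dotted line marks non-targeting abundance. In the 2022 replicate 1 reference library CHTF18 lay at 0.475, against 0.633 to 0.655 in the other reference libraries.

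The growth phenotype, the log2 change of the reference arm from T0, was -0.86, -0.45, -0.45 and -0.44 for CHTF18, a mean of -0.55 ± 0.21 (SD, n = 4). CUL2 growth was -0.87, -0.55, -0.66 and -0.64, with a mean of -0.68 ± 0.13 (SD, n = 4). Among the 543 genes, CHTF18 ranked 251 and CUL2 219 from the most depleted, so both lay in the middle of this library, where edgeR called growth lower for 81.0% of genes and higher for 4.24%. Without 2022 replicate 1 the edgeR growth estimates were -0.45 for CHTF18 and -0.60 for CUL2. Non-targeting sgRNAs, treated as genes, spanned -0.06 to 0.08, with 3 of 55 called. Growth depends on the scaling: with TMM, which assumes that most genes do not change, the values were -0.10 for CHTF18 and -0.22 for CUL2.

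The niraparib response, the log2 change of the niraparib arm from the reference arm, was -0.12, -0.49, -0.50 and -0.56 for CHTF18 (mean -0.42 ± 0.20, SD, n = 4). CHTF18 ranked 64 of 543 from the most sensitised, and without 2022 replicate 1 its estimate was -0.51. CUL2 response was 0.08, -0.23, -0.20 and -0.20 (mean -0.14 ± 0.15, SD, n = 4), rank 142, and -0.21 without that replicate. Over all genes, edgeR called the response lower for 35.7% and higher for 44.2%. Growth and response share the reference libraries with opposite sign. The change of niraparib cells from T0 uses none of them, and it was -0.97 ± 0.03 for CHTF18 and -0.81 ± 0.04 for CUL2 (SD, n = 4 each), a narrower spread than growth or response. The niraparib arm went through fewer doublings, and scaled to equal doublings with constants recovered from the authors' phenotype values the response was -0.87 ± 0.30 for CHTF18 and -0.52 ± 0.23 for CUL2 (SD, n = 4 each).

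With all cultures, neither gene passed the test of a difference between screens. CHTF18 growth was 0.21 higher in the 2023 screen than in the 2022 screen (edgeR adjusted p = 0.33) and its response differed by -0.22 (edgeR adjusted p = 0.399). CUL2 differed by 0.06 in growth (edgeR adjusted p = 0.721) and by -0.13 in response (edgeR adjusted p = 0.539). Of all genes, 31.1% differed between screens in growth and 0.368% in response. The size of these differences rests on which 2022 culture is used. With 1 culture left in the 2022 screen its spread is not estimated, so such fits are given as sizes without p-values. Without 2022 replicate 2 the growth differences were 0.42 for CHTF18 and 0.22 for CUL2, and the response differences were -0.41 and -0.28. Without 2022 replicate 1 they were 0.01 and -0.10 in growth and -0.04 and 0.03 in response.

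The 2 CHTF18 sgRNAs gave values within 1 SD of each other, with growth of -0.53 ± 0.18 for 838671 and -0.57 ± 0.23 for 838687, and responses of -0.43 ± 0.18 and -0.41 ± 0.22 (SD, n = 4). The CUL2 sgRNAs were less even, with growth of -0.84 ± 0.14 for 35379233 and -0.52 ± 0.14 for 35379251 (SD, n = 4). By position in the construct, CUL2 sgRNA 35379233 gave a growth of -0.99 ± 0.14 in first position and -0.73 ± 0.14 in second. Constructs that carried both different sgRNAs of one gene gave growth of -0.70 ± 0.24 for CHTF18 and -0.68 ± 0.25 for CUL2, and responses of -0.67 ± 0.31 and -0.21 ± 0.11 (SD, n = 4, 2 constructs each). Each of these means differed from the single phenotype with non-targeting sgRNAs by less than its own SD.

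Joint knockdown of CHTF18 and CUL2 depleted cells beyond the sum of the single effects in both arms. The 8 constructs that join them held 684, 695, 351 and 268 reads in niraparib cells, against 882, 958, 272 and 313 in reference cells and 1537, 1475, 958 and 951 at T0. Their abundance relative to non-targeting constructs was 0.156, 0.161, 0.117 and 0.107 in niraparib cells, 0.147, 0.177, 0.105 and 0.131 in reference cells and 0.633, 0.610, 0.586 and 0.583 at T0. The niraparib and reference libraries overlapped, and both lay far below T0. The mean log2 change from T0 was -2.23 ± 0.17 in niraparib cells, where the single changes sum to -1.81 ± 0.05. It was -2.24 ± 0.31 in reference cells, where they sum to -1.26 ± 0.33 (SD, n = 4 each). The measured change was below the sum in all 4 cultures of both arms. The pair's own niraparib response was 0.01 ± 0.21, where the single responses sum to -0.55 ± 0.34. Without 2022 replicate 1 these values were -0.04 ± 0.22 and -0.72 ± 0.04 (SD, n = 3).

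**Figure D2:**
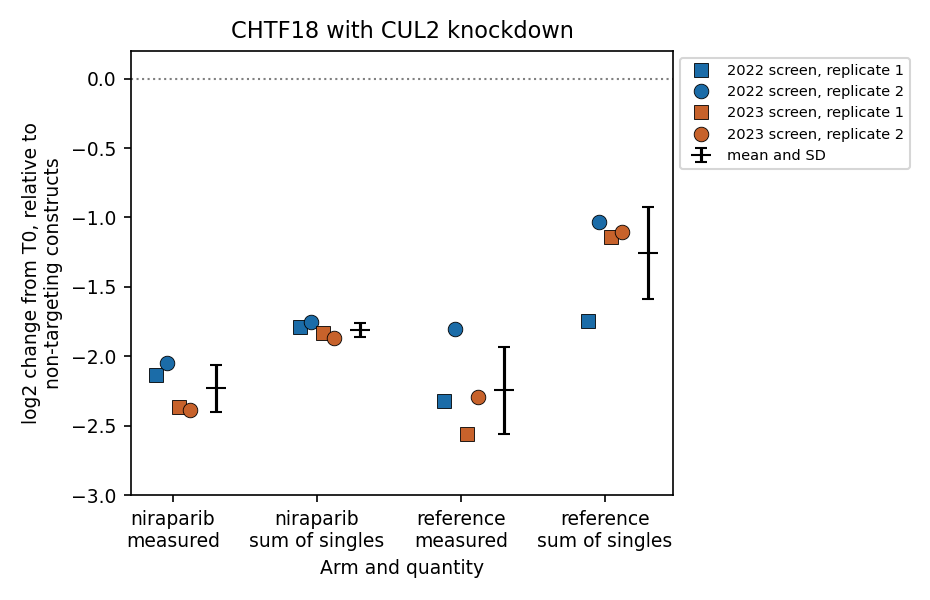
Log2 change from T0 of constructs that join CHTF18 and CUL2 sgRNAs, measured and as the sum of the single changes, in the niraparib and reference arms. Points are the 4 cultures and bars the mean and SD. The measured means are -2.23 in niraparib cells and -2.24 in reference cells, below sums of -1.81 and -1.26.

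Interaction scores put this pair on one scale with all others. For each sgRNA a degree-2 curve was fitted through the log2 changes of its constructs against the single phenotype of the partner sgRNA, and the score is the mean deviation from these curves, so a negative score means more depletion than the curve gives. The CHTF18 and CUL2 score was -0.73, -0.66, -0.89 and -0.89 in niraparib cells (mean -0.79 ± 0.11), rank 167 of 147044 gene pairs. It was -0.94, -0.92, -1.56 and -1.32 in reference cells (mean -1.19 ± 0.31, SD, n = 4), rank 19. The niraparib minus reference difference, the differential score, averaged 0.39. Without 2022 replicate 1 the means were -0.78 and -1.18. By sgRNA pair the reference mean ran from -1.37 to -0.70. The niraparib mean ran from -1.39 to -0.36, and the pairs with CUL2 sgRNA 35379251 were at -1.39 and -0.98, against -0.44 and -0.36 with 35379233. With the 55 non-targeting sgRNAs, for comparison, CHTF18 scored between -0.19 and 0.18 in niraparib cells and between -0.25 and 0.15 in reference cells, and CUL2 between -0.19 and 0.10 and between -0.15 and 0.11.

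With the mutual pair left out, both genes had a larger share of lower partners than all gene pairs had. At a limma adjusted p under 0.05, CHTF18 scored lower with 44 of 541 genes in niraparib cells (8.13%) and with 15 in reference cells (2.77%). It scored higher with 11 and 3. CUL2 scored lower with 30 genes in niraparib cells (5.55%) and 20 in reference cells (3.7%), and higher with 18 and 4. Over all gene pairs, 2.32% scored lower and 2.09% higher in niraparib cells, and 1.06% scored lower and 0.815% higher in reference cells. The 2 arms share T0 libraries, so their scores are not independent. Across the 542 partners the 2023 and 2022 means correlated at r = 0.69 in niraparib cells and 0.495 in reference cells for CHTF18, and at 0.767 and 0.776 for CUL2, as a description over partners that share libraries.

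These counts depend on the 2022 cultures, and so do those over all gene pairs, which fell sharply when either 2022 culture was left out. The fall is therefore not particular to CHTF18 or CUL2. Counts with a culture left out, here and for the other alternatives, include the mutual pair, with which the counts above are 45 and 16 for CHTF18 and 31 and 21 for CUL2. Without 2022 replicate 1 CHTF18 had 3 lower calls in niraparib cells and 0 in reference cells, and without 2022 replicate 2 it had 5 and 0. CUL2 had 4 and 0 without replicate 1, and 8 and 0 without replicate 2. In these reference fits by limma an unadjusted p under 0.05 was reached by 67 and 77 partners of CHTF18 and by 125 and 129 of CUL2, against 112 and 193 with all cultures. Such fits have 3 cultures, 1 screen term and 1 residual degree of freedom. Leaving out a 2023 culture left CHTF18 with 29 to 33 lower calls in niraparib cells and 13 to 18 in reference cells. No score of a named partner past the threshold changed sign in any alternative.

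**Figure D3:**
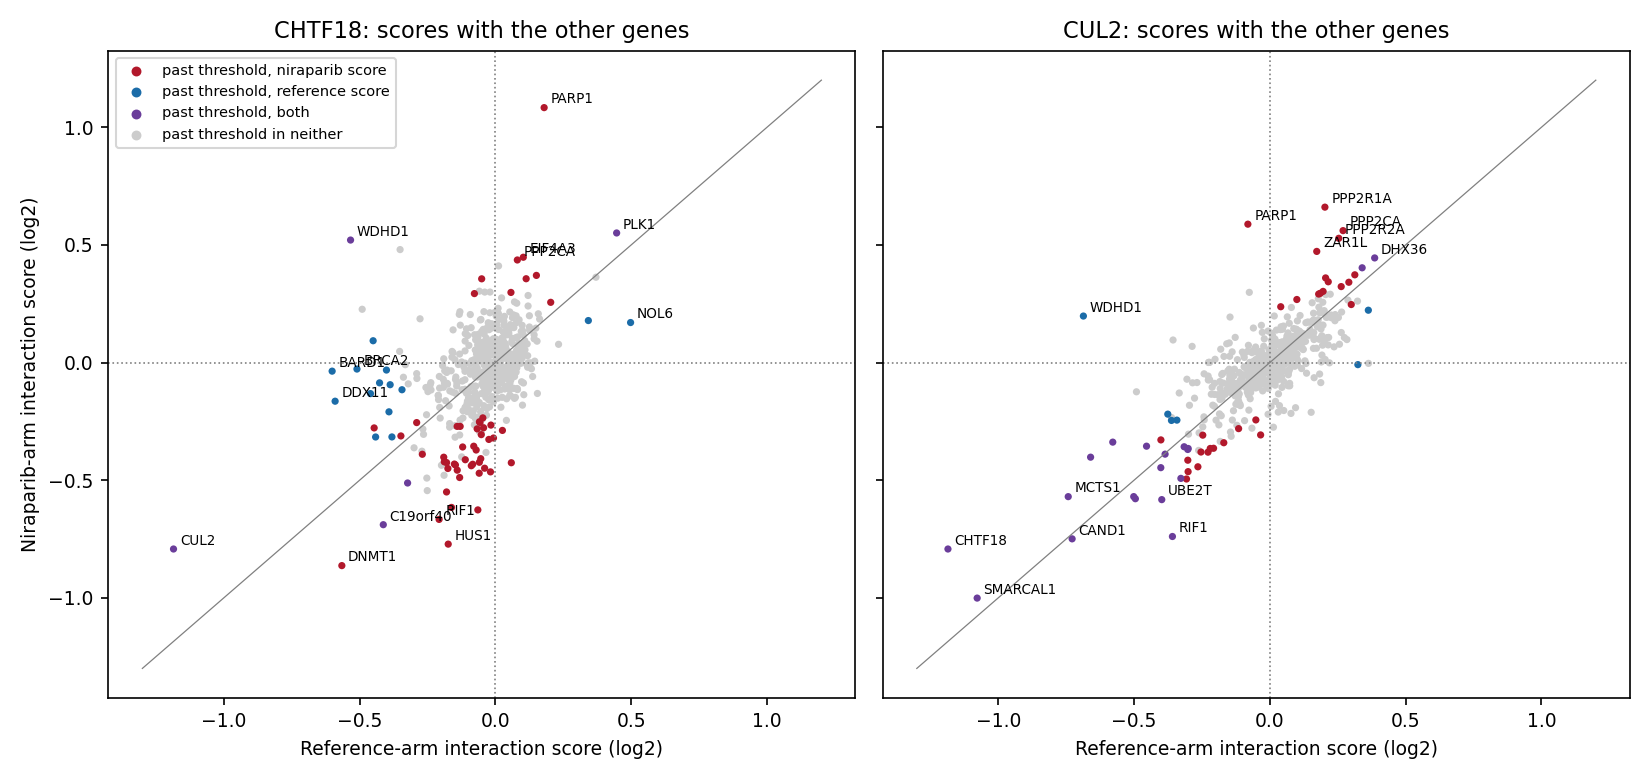
Mean interaction scores of CHTF18 (left) and CUL2 (right) with each of 542 genes, reference arm on the x axis and niraparib arm on the y axis, both in log2. Colours mark scores past the limma threshold and the line marks equal scores. CHTF18 with PARP1 stands at 1.08 in niraparib cells and 0.18 in reference cells, and CUL2 with SMARCAL1 at -1.001 and -1.08.

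The largest positive score of CHTF18 in niraparib cells was with PARP1, the main target of niraparib, whose own repression raised abundance under the drug relative to the vehicle (response 2.13, edgeR adjusted p = 1.3e-05). The 8 constructs of CHTF18 with PARP1 held 8778, 8872, 7265 and 6400 reads in niraparib cells, against 2080, 3289, 1583 and 1607 in reference cells and 2436, 2439, 1667 and 1872 at T0. Niraparib libraries were the highest and did not overlap the others. The pair's change from T0 was 1.12 ± 0.10 in niraparib cells, where the singles sum to 0.41 ± 0.15, and -0.95 ± 0.36 in reference cells, where they sum to -1.31 ± 0.60 (SD, n = 4 each). The score was 1.12, 1.06, 1.09 and 1.06 in niraparib cells (mean 1.08 ± 0.03, limma adjusted p = 0.00245), and 0.18 ± 0.08 in reference cells (limma adjusted p = 0.11). The differential score of 0.90 passed the threshold (limma adjusted p = 0.0162), with 4 of 4 cultures positive, but with any 1 culture left out limma adjusted p was 0.0714 to 0.21. CUL2 with PARP1 scored 0.59 ± 0.09 in niraparib cells (limma adjusted p = 0.00935) and -0.08 ± 0.20 in reference cells, and its differential score of 0.67 did not pass (limma adjusted p = 0.0725). That pair's niraparib response was 2.01 ± 0.46, where the single responses sum to 2.01 ± 0.49 (SD, n = 4 each). Its scores thus depart from the curve, while its response hardly departs from the sum.

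C4orf27, now called HPF1, is the cofactor with which PARP1 modifies serines, and its repression sensitised cells to niraparib (response -1.44). CHTF18 with C4orf27 scored -0.63 ± 0.12 in niraparib cells (limma adjusted p = 0.0134) and -0.06 ± 0.12 in reference cells (limma adjusted p = 0.614). In niraparib cells the pair changed by -2.73 ± 0.22, where the singles sum to -2.57 ± 0.16. Its niraparib response was -2.065 ± 0.28, where the single responses sum to -1.958 ± 0.33 (SD, n = 4 each). The score thus departs more from the curve than the pair does from the sum. The differential score was -0.56, -0.60, -0.58 and -0.51, a mean of -0.56 (limma adjusted p = 0.0491), the only negative differential call of CHTF18. Over all pairs 0.0524% of differential scores were lower and 0.104% higher. The call was lost with a straight line in place of the curve (limma adjusted p = 0.0656) and with a T0 minimum of 100 (limma adjusted p = 0.062), and limma adjusted p was 0.119 to 0.322 with any 1 culture left out. CUL2 with C4orf27 scored -0.31 ± 0.08 in niraparib cells (limma adjusted p = 0.0286).

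WDHD1, a replisome protein that ties the helicase to polymerase alpha, gave the largest positive differential score with both genes. CHTF18 with WDHD1 scored 0.65, 0.30, 0.33 and 0.80 in niraparib cells (mean 0.52, limma adjusted p = 0.0481), and -0.12, -0.36, -0.95 and -0.70 in reference cells (mean -0.53, limma adjusted p = 0.0342). The reference values differed between the screens, a spread that the p-value leaves out. The arms did not overlap and had opposite signs, and the differential score was 1.05 (limma adjusted p = 0.0195). CUL2 with WDHD1 scored 0.20 ± 0.25 in niraparib cells (limma adjusted p = 0.0813) and -0.69 ± 0.17 in reference cells (limma adjusted p = 0.027), with a differential score of 0.88 ± 0.32 (limma adjusted p = 0.0339). In log2 changes, CHTF18 with WDHD1 reached -2.02 ± 0.26 in niraparib cells, where the singles sum to -3.45 ± 0.21, and -1.81 ± 0.27 in reference cells, where they sum to -1.56 ± 0.42 (SD, n = 4 each). The response of the pair to niraparib was thus -0.22 ± 0.27 (-0.30 ± 0.27 without 2022 replicate 1), while WDHD1 alone responded by -1.41. CUL2 with WDHD1 responded by -0.27 ± 0.13 (-0.28 ± 0.16 without that culture). The pairs were already low at T0, at 0.368 to 0.402 of non-targeting abundance with CHTF18, and the 8 constructs held 242 to 488 reads in niraparib cells. The differential calls passed with 0 leave-one-out fits, where limma adjusted p was 0.0667 to 0.19 for CHTF18 and 0.0967 to 0.235 for CUL2.

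In reference cells the lowest partners of CHTF18 past the threshold, CUL2 aside, were BARD1, DDX11, WDHD1 and BRCA2. BARD1, the partner of BRCA1, scored -0.94, -0.59, -0.41 and -0.47, a mean of -0.60 (limma adjusted p = 0.0292), lowest in 2022 replicate 1 and -0.51 without it (limma adjusted p = 0.127). BRCA2, a homologous recombination protein, scored -0.51 ± 0.06 (limma adjusted p = 0.0184). DDX11, a helicase known for its part in sister chromatid cohesion, scored -0.46, -0.52, -0.67 and -0.71, a mean of -0.59 (limma adjusted p = 0.0157). In niraparib cells the same pairs scored -0.04 ± 0.22, -0.03 ± 0.11 and -0.16 ± 0.19, none past the threshold. The differential scores did not pass (limma adjusted p = 0.192 for BARD1, 0.0793 for BRCA2 and 0.149 for DDX11), so the arms are not shown to differ. The pairs with BARD1 and BRCA2 were strongly depleted under niraparib, but less than the sum of the singles. CHTF18 with BARD1 changed by -5.23 ± 0.19, where the singles sum to -6.18 ± 0.05. With BRCA2 it changed by -4.48 ± 0.24, where they sum to -5.39 ± 0.13 (SD, n = 4 each). The BARD1 pair kept 152, 111, 55 and 56 reads over 8 constructs, against 521, 1062, 571 and 509 in reference cells. The BRCA2 pair kept 425, 352, 181 and 209 reads under niraparib. Of the 6 measured cohesion genes, CHTF18 scored lower with NIPBL alone in niraparib cells (-0.31) and with DDX11 alone in reference cells. Over all its partners the shares were 8.13% and 2.77%.

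**Figure D4:**
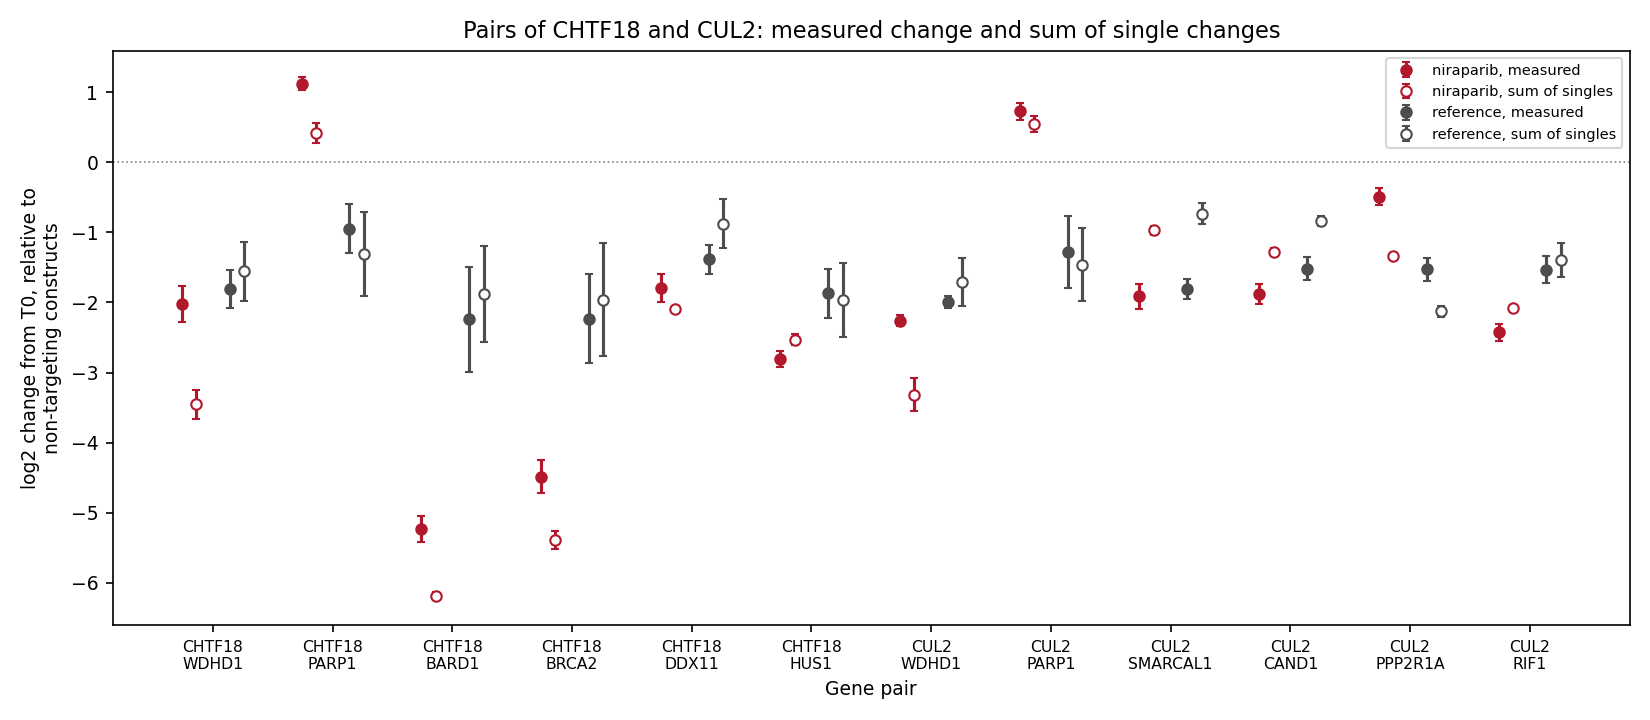
Measured log2 change from T0 (filled) and sum of the single changes (open) for 12 gene pairs in the niraparib and reference arms, as mean and SD of 4 cultures. CHTF18 with WDHD1 lies at -2.02 under niraparib where the singles sum to -3.45, and CUL2 with SMARCAL1 at -1.91 where they sum to -0.97.

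The checkpoint list stood lower with CHTF18 under niraparib. It holds 10 measured genes of the ATR kinase pathway, which answers stalled forks, including HUS1, RAD9A and RAD1, the ring-shaped clamp loaded by RAD17 in place of PCNA. CHTF18 scored lower with 7 of the 10 in niraparib cells and with 1 in reference cells, and higher with 0 in either. Of all its partners, 8.13% and 2.77% scored lower. Like the other lists, this one was written with earlier results of these data known. The list medians were -0.33 and -0.18, against -0.02 and -0.03 over all partners. HUS1 scored -0.63, -0.86, -0.87 and -0.72 in niraparib cells (mean -0.77, limma adjusted p = 0.00924), and -0.17 ± 0.04 in reference cells (limma adjusted p = 0.109). In niraparib cells that pair changed by -2.81 ± 0.11, where the singles sum to -2.53 ± 0.08 (SD, n = 4 each). RAD9A scored -0.62 ± 0.31 in niraparib cells, ETAA1, an activator of ATR, -0.55 ± 0.16, and RAD17 -0.51 ± 0.11, against -0.16, -0.18 and -0.32 in reference cells, where RAD17 alone passed (limma adjusted p = 0.0414). CHEK1, the kinase downstream of ATR, and CLSPN, its adaptor, scored 0.16 ± 0.29 and 0.18 ± 0.26 in niraparib cells and did not pass. No differential score of the list passed by limma, the nearest being HUS1 at -0.60 (adjusted p = 0.0628). CUL2 scored lower with 1 of the 10 in niraparib cells and 2 in reference cells, HUS1 in both (-0.39 ± 0.06 and -0.39 ± 0.08). Of all CUL2 partners, 5.55% and 3.7% scored lower.

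Of 7 measured genes for the other clamp loader subunits and the clamp, CHTF18 scored lower with RAD17 in niraparib cells and with RFC1 and RAD17 in reference cells, and no differential score passed by limma. Over all CHTF18 partners 8.13% and 2.77% scored lower in these arms. Alone, RFC1 to RFC5, RAD17 and PCNA each passed the test as lower in growth and in response, 7 of 7, where 81.0% of all genes passed as lower in growth and 35.7% in response. PCNA, at -0.04 and -0.06, lay within the range of the non-targeting sgRNAs, and in growth under TMM RFC2 (0.35) and PCNA (0.42) turned positive and RFC1 was at -0.01. RFC1, the subunit that CHTF18 replaces, had a growth of -0.46 and a response of -1.08 (edgeR adjusted p = 6.34e-07). CHTF18 with RFC1 scored 0.09 ± 0.10 in niraparib cells and -0.45 ± 0.11 in reference cells (limma adjusted p = 0.0311), and the differential score of 0.54 did not pass (limma adjusted p = 0.0508). RAD17 scored -0.51 ± 0.11 in niraparib cells and -0.32 ± 0.11 in reference cells, and RFC2 -0.27 ± 0.09 and -0.15 ± 0.15, the last gene passing in neither. RFC3, RFC4 and RFC5 scored -0.28, -0.35 and -0.33 in reference cells without passing, and the list medians were -0.01 in niraparib cells and -0.32 in reference cells, against -0.02 and -0.03 over all partners. CUL2 scored lower with RAD17 alone in reference cells (-0.38 ± 0.12) and with 0 of the 7 in niraparib cells by limma. Its shares over all partners were 3.7% and 5.55%.

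**Figure D5:**
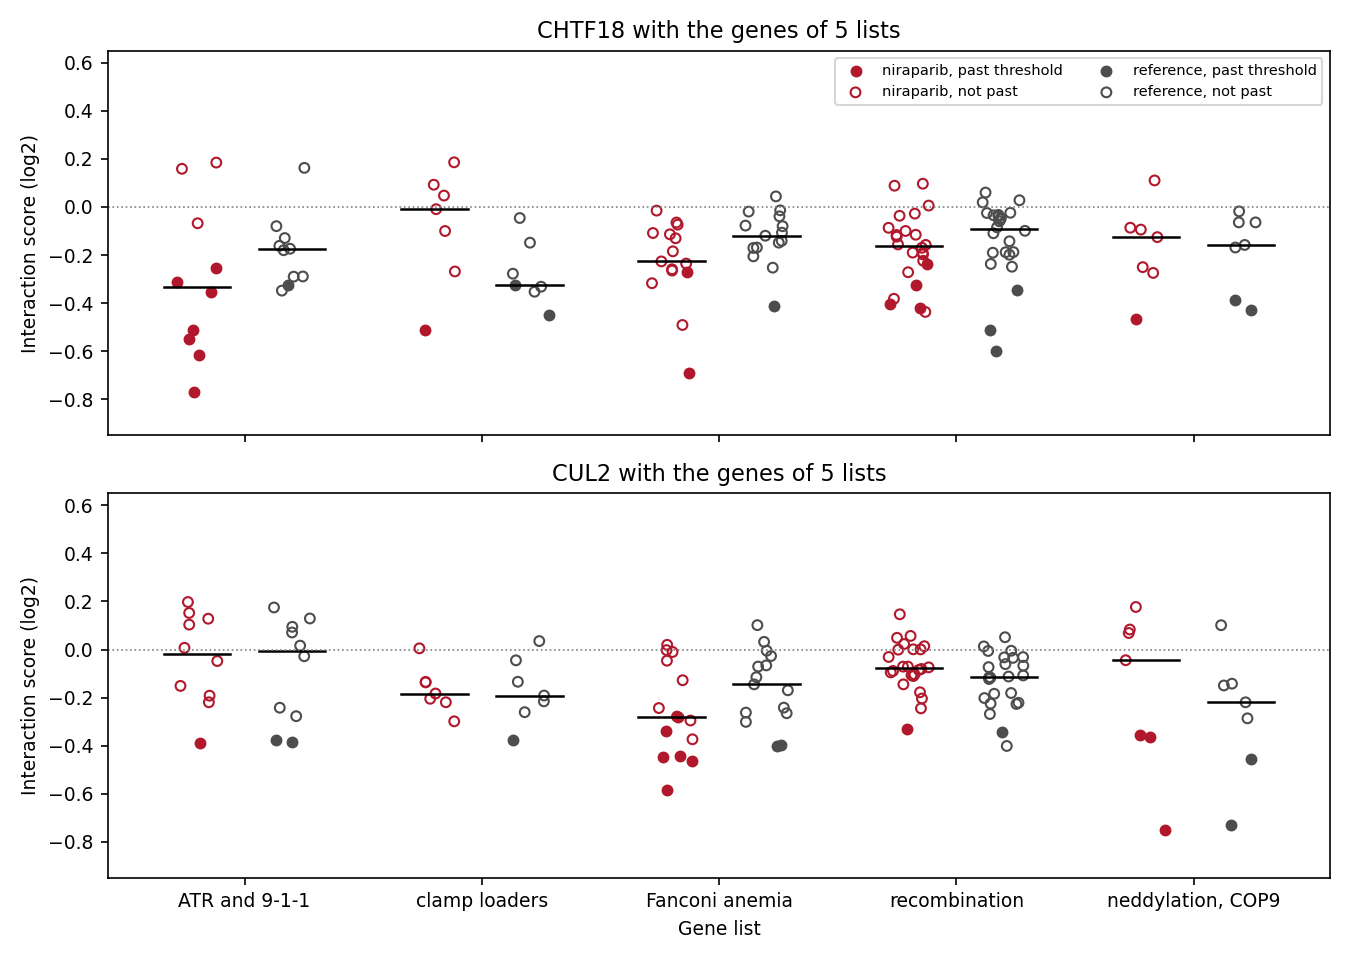
Interaction scores (log2) of CHTF18 (top) and CUL2 (bottom) with the genes of 5 lists in the niraparib and reference arms. Filled points passed the limma threshold and bars are list medians. CHTF18 passed as lower with 7 of 10 checkpoint genes in niraparib cells and 1 in reference cells, and CUL2 with 6 and 2 of 15 Fanconi anemia genes. Over all partners the shares were 8.13% and 2.77% for CHTF18 and 5.55% and 3.7% for CUL2.

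The lowest scores of CHTF18 in niraparib cells were with DNMT1, CUL2, HUS1, C19orf40 and RIF1. DNMT1, which maintains DNA methylation, scored -0.86 ± 0.17 (limma adjusted p = 0.00878), although the pair changed by -3.78 ± 0.26 where the singles sum to -3.65 ± 0.09. The score therefore departs from the curve and hardly from the sum. C19orf40, the Fanconi protein FAAP24, scored -0.69 ± 0.21, and RIF1, which protects stalled forks and sets replication timing, scored -0.67 ± 0.13. The C19orf40 pair also lay near the sum, at -3.06 ± 0.24 where the singles sum to -2.97 ± 0.05. The RIF1 pair changed by -2.48 ± 0.13, where they sum to -2.22 ± 0.08 (SD, n = 4 each). The highest partners past the threshold after PARP1 were PLK1 (0.55), WDHD1 (0.52), the exon junction protein EIF4A3 (0.45) and the phosphatase subunit PPP2CA (0.44). PLK1 and EIF4A3 depended on the T0 minimum: PLK1 scored 0.17 with no T0 minimum (limma adjusted p = 0.525) and EIF4A3 0.18 with a minimum of 100 (limma adjusted p = 0.345). In reference cells 3 partners passed as higher. NOL6, a ribosome assembly factor, scored -0.04 and 0.10 in the 2022 cultures and 0.92 and 1.01 in the 2023 cultures, a mean of 0.50 ± 0.54. It passed because the screen term takes this difference between screens out of the test's spread. The score also rests on few reads: the 8 constructs held 65, 70, 34 and 49 in reference cells, against 251, 235, 198 and 200 at T0. PLK1 scored 0.45 and the transcription factor TCF3 scored 0.34. PLK1 did not pass with no T0 minimum (limma adjusted p = 0.991), and HAUS1, a subunit of the spindle complex augmin, scored 0.37 and did not pass (limma adjusted p = 0.115).

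The lowest partner of CUL2 other than CHTF18 was SMARCAL1, a helicase that remodels stalled forks, in both arms. The 8 constructs held 927, 864, 506 and 437 reads in niraparib cells, against 1150, 1241, 478 and 480 in reference cells and 1631, 1586, 1125 and 1176 at T0. The score was -0.82, -0.9997, -1.17 and -1.01 in niraparib cells (mean -1.001, limma adjusted p = 0.00489), and -0.94, -1.01, -1.23 and -1.14 in reference cells (mean -1.08, limma adjusted p = 0.00882). The arms overlapped, and the differential score was 0.08 (limma adjusted p = 0.651). SMARCAL1 alone changed growth by -0.03 (edgeR adjusted p = 0.0626) and the niraparib response by -0.10, yet the pair changed by -1.91 ± 0.18 in niraparib cells and -1.81 ± 0.15 in reference cells, where the singles sum to -0.97 ± 0.06 and -0.74 ± 0.15 (SD, n = 4 each). CHTF18 with SMARCAL1 scored -0.15 ± 0.08 and 0.07 ± 0.11 and passed in neither arm.

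CAND1 was the next gene of the ubiquitin ligase system. CUL2 with CAND1 scored -0.59, -0.91, -0.74 and -0.75 in niraparib cells (mean -0.75, limma adjusted p = 0.0105), and -0.62, -0.69, -0.93 and -0.67 in reference cells (mean -0.73, limma adjusted p = 0.0165). CAND1 alone had a growth of -0.12 (edgeR adjusted p = 0.00385), which was 0.33 under TMM, and a response of -0.29. Of the 7 measured neddylation and COP9 genes, CUL2 scored lower with 3 in niraparib cells and 2 in reference cells, and higher with 0. Over all CUL2 partners 5.55% and 3.7% scored lower. Among the COP9 subunits, COPS4 passed in both arms (-0.36 ± 0.13 and -0.45 ± 0.12) and MYEOV2, now COPS9, in niraparib cells (-0.37 ± 0.10). UBA3, a subunit of the NEDD8-activating enzyme, scored 0.18 ± 0.11 and 0.10 ± 0.12 and did not pass. The list medians were -0.04 in niraparib cells and -0.22 in reference cells, against -0.01 and 0.00 over all partners. CHTF18 scored lower with CAND1 in niraparib cells (-0.46 ± 0.20, limma adjusted p = 0.0454) and with COPS4 (-0.43 ± 0.11) and COPS5 (-0.39 ± 0.10) in reference cells. No gene of the lists for elongins, RBX1, cullin-2 substrate receptors, other cullins or hypoxia response was in the library.

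CUL2 scored lower with TRAIP, a ubiquitin ligase that also marks the replicative helicase for removal, at -0.58 ± 0.18 in niraparib cells (limma adjusted p = 0.0206) and -0.50 ± 0.07 in reference cells (limma adjusted p = 0.0209). CHTF18 with TRAIP scored -0.39 ± 0.08 in niraparib cells (limma adjusted p = 0.0242) and -0.27 ± 0.13 in reference cells (limma adjusted p = 0.0919). In niraparib cells that pair hardly departed from the sum, at -1.95 ± 0.11 where the singles sum to -1.92 ± 0.06 (SD, n = 4 each). CUL2 also scored lower with MCTS1, at -0.57 in niraparib cells and -0.74 in reference cells, and with its partner DENR, at -0.40 and -0.66. MCTS1 and DENR form a dimer that restarts translation after short reading frames. The RIF1 score with CUL2 was -0.74 ± 0.10 in niraparib cells (limma adjusted p = 0.00901) and passed in reference cells as well.

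The Fanconi anemia list, genes of interstrand crosslink repair, had medians below those of all partners with both genes. CUL2 scored lower with 6 of 15 measured members in niraparib cells and 2 in reference cells, and higher with 0, where 5.55% and 3.7% of all its partners scored lower. The list medians for CUL2 were -0.28 and -0.15, against -0.01 and 0.00 over all partners. UBE2T, the ubiquitin-conjugating enzyme of the pathway, scored -0.58 ± 0.08 in niraparib cells (limma adjusted p = 0.0116) and -0.40 ± 0.08 in reference cells (limma adjusted p = 0.0353). FANCD2, its substrate, scored -0.45 ± 0.16 and -0.40 ± 0.09. CHTF18 scored lower with 2 of the 15 in niraparib cells, C19orf40 and FANCF, and with C19orf40 in reference cells, and its list medians were -0.23 and -0.12, against -0.02 and -0.03 over all partners. Of the 24 homologous recombination genes, CHTF18 scored lower with 4 in niraparib cells and 3 in reference cells, and CUL2 with 1 in each. Over all partners CHTF18 scored lower with 8.13% and 2.77%, and the CUL2 counts are near its overall shares of 5.55% and 3.7%.

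The highest scores of CUL2 under niraparib were with PPP2R1A, PARP1, PPP2CA, PPP2R2A and ZAR1L. PPP2R1A, the scaffold of the phosphatase PP2A, scored 0.66 ± 0.13 (limma adjusted p = 0.0121), PPP2CA, the catalytic subunit, 0.56 ± 0.06, and PPP2R2A, a regulatory subunit, 0.53 ± 0.09. Repression of each of these 3 genes alone raised abundance under niraparib relative to the vehicle, with responses of 0.88, 0.72 and 0.69. The CUL2 and PPP2R1A pair changed by -0.49 ± 0.12 in niraparib cells, where the singles sum to -1.35 ± 0.02, and by -1.52 ± 0.16 in reference cells, where they sum to -2.13 ± 0.08 (SD, n = 4 each). The differential score of 0.46 did not pass (limma adjusted p = 0.127). ZAR1L, whose gene neighbours BRCA2, scored 0.47 ± 0.12. In reference cells the highest partners past the threshold were DHX36, a helicase of G-quadruplexes (0.39), the respiratory subunit NDUFB2 (0.36), the glycolytic enzyme GAPDH (0.34) and LZTR1, a receptor of cullin-3 ligases (0.32).

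Over 541 shared partners in niraparib cells, CHTF18 had the profile most like that of CUL2 (r = 0.483, 0.42 in the 2023 and 0.421 in the 2022 screen), with USP15 (0.465), FAM19A2 (0.448), POLB (0.446) and PTPN1 (0.445) close behind. The lead over USP15 is smaller than the SD over single cultures of the CHTF18 value (0.0209), and in the 2022 screen PTPN1 was higher (0.463). For CHTF18 the most alike were TRAIP (0.764), LIG3 (0.691), POLB (0.686), DNPH1 (0.682) and NAA50 (0.673), and CUL2 ranked 78 of 542. In reference cells CHTF18 was most like the Fanconi-related genes SLX4 (0.438), FANCD2 (0.43), UBE2T (0.416), FANCI (0.384) and FANCB (0.369), with CUL2 at rank 15 (0.324). Within the 2023 screen these r were 0.259, 0.331, 0.281, 0.213 and 0.156, with CUL2 at 0.217, above FANCI and FANCB. Within the 2022 screen they were 0.404, 0.392, 0.31, 0.307 and 0.397, with CUL2 at 0.283. CUL2 was most like RBM42 (0.331) and WDHD1 (0.327), with CHTF18 at rank 3, followed by OBFC1 (0.319) and RFC1 (0.311). Median r over all genes was 0.107 for CHTF18 and 0.0497 for CUL2 in niraparib cells, and 0.0467 and 0.0147 in reference cells. All profiles share the same libraries, and partners are not independent replicates.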

How the data were processed

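The files are tables of both screens, with read counts per dual-sgRNA construct in each of 12 libraries, deposited by the authors, and log2 phenotypes per construct (gamma, tau and rho) that the authors computed from those counts. Per the labels' protocols, sgRNA loci were amplified by PCR from genomic DNA. Bowtie2 2.3.4.1 is named in the submitters' processing notes, its use is not stated, and the genome build is not given in the sources used here. The deposited log2 phenotypes served here only to recover the doubling constants, and every other value was computed from the deposited counts.

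For single phenotypes, counts of a gene's 220 constructs with non-targeting sgRNAs were summed and tested with edgeR 4.0.16 (quasi-likelihood, library size from the 3025 non-targeting constructs, culture as a block, Benjamini-Hochberg over 543 genes and 55 non-targeting sgRNAs). Interaction scores used log2((count + 1)/(T0 count + 1)) of constructs whose T0 counts averaged 30 or more (9014 of 9112 member constructs), a degree-2 curve per sgRNA with at least 100 partners, both orders and all 4 sgRNA pairs, and limma 3.58.1 on 4 cultures with a screen term, adjusted over 147044 gene pairs. Values ± are SDs over 4 cultures. R 4.3.3, DESeq2 1.42.0 and Python 3.11.15 were used.

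Tests were run on simulated data: edgeR recovered 100% of simulated response changes of 0.25 and 0.5 (6 false calls among 398 rows), and limma recovered 98.5%, 87.9% and 57.6% of simulated scores of 1 in the reference, niraparib and differential fits, and 13.4%, 1.49% and 0% of scores of 0.5. Each limma simulation changed only 66 or 67 of 147044 pairs per score size, where the data gave 3408 lower and 3066 higher niraparib calls. The adjustment is stricter when few pairs change, so these shares do not give the recovery in the data. There CHTF18 with RAD50 passed at -0.24 in niraparib cells (limma adjusted p = 0.0493). Per the labels' protocols each culture supplied its T0, niraparib and reference libraries, which pairs them. As a check, gene-level replicate differences of the niraparib and reference arms correlated at 0.209 in 2023 and 0.491 in 2022, and those with T0 at -0.0198 to 0.0856. Whether the cultures came from separate transductions within a screen is known only as far as the labels call them biological replicates.

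Members and gene lists were chosen with earlier results of these data known. Named are the members, for each member and score, up to 5 partners per direction past the threshold with 1 sign in 4 cultures (where fewer than 3 pass, the 3 most extreme), the 5 most alike profiles, all genes of the clamp loader, cullin and neddylation lists, and the 2 lowest and 2 highest of the other lists. TCF3, DENR, the list members given between the extremes and the constructs with both sgRNAs of a gene were chosen after their values were seen. Alternatives were scaling (TMM, median of ratios), DESeq2, sgRNA, order, T0 minimum, pseudocount 10, straight line, no replicate block and each culture left out.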

Additional observations from a re-analysis of the deposited data

Results flagged for a closer look

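Of 54 groups of 4 culture values examined, 5 held a value far from the other 3, where chance gives about 1 in 20. The growth of CHTF18 was -0.865 in 2022 replicate 1, below the other cultures. Its niraparib response was -0.116 in the same culture, above the others, and so was the response of CUL2, at 0.0827. These 3 values share the 2022 replicate 1 reference library. The niraparib score of CHTF18 with C19orf40 was -1.0 in 2023 replicate 1, lower than in the other cultures. The niraparib score of CHTF18 with DNMT1 was -0.616 in 2022 replicate 2, nearer to 0 than in the others.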

How the results depend on the processing

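The scaling set the size of single growth. TMM gave -0.096 for CHTF18 and -0.22 for CUL2, and median-of-ratios scaling gave -0.16 and -0.29. The first CUL2 sgRNA alone gave a growth of -0.84 and the second -0.52, and at equal doublings the responses were -0.87 for CHTF18 and -0.52 for CUL2. The CUL2 growth difference between screens was -0.012 with its first sgRNA (edgeR adjusted p = 0.943). With 1 culture left out it ran from -0.098 to 0.22, and in response from -0.28 to 0.026; for CHTF18 the ranges were 0.0067 to 0.42 in growth and -0.41 to -0.037 in response. The niraparib score of CHTF18 with CUL2 was -0.67 with pseudocount 10, -0.92 with the first and -0.67 with the second CHTF18 sgRNA. It depended more on the CUL2 sgRNA, with sgRNA pairs at -1.39 and -0.98 for 35379251 and at -0.44 and -0.36 for 35379233.

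Counts of partners moved most, and not for these genes alone. Over all 147044 gene pairs the main fit called 3408 lower and 3066 higher in niraparib cells, and 1554 and 1199 in reference cells. Pseudocount 10 called 6669 and 6635, then 4032 and 3903. Dropping the replicate block called 5167 and 5462, then 3057 and 3110. The straight line called 4303 and 5935, then 2443 and 3537. With 1 culture left out the calls over all pairs fell. Position and sgRNA settings changed the members' pairs alone. Without the replicate block, limma called 68 lower and 18 higher for CHTF18 in niraparib cells, 29 lower in reference cells, and 7 lower and 9 higher in the differential score. For CUL2 the fit without the replicate block called 30 higher in niraparib cells, 40 lower and 26 higher in reference cells, and 2 lower and 5 higher in the differential score. Pseudocount 10 gave 77 lower and 22 higher for CHTF18 in niraparib cells, 33 lower in reference cells, and 10 lower and 15 higher in the differential score. For CUL2 it gave 54 and 33, then 56 and 25, then 3 and 5. A straight line gave 24 higher for CHTF18 and 35 for CUL2 in niraparib cells, 28 higher for CUL2 in reference cells, 0 lower differential calls for CHTF18 and 0 higher for CUL2. With the member's sgRNA in first position CHTF18 had 31 higher in niraparib cells, 5 higher in reference cells, and 2 lower and 1 higher differential calls, and CUL2 had 32 higher in niraparib cells. In second position CHTF18 had 31 higher, then 7 lower and 5 higher, then 0 lower, and CUL2 had 7 higher in reference cells. The first sgRNA alone gave 9 higher for CUL2 in reference cells and 0 lower differential calls for CHTF18. The second gave 8 higher for CUL2, 17 higher for CHTF18 in niraparib cells, and 2 lower differential calls for CHTF18 and 0 higher for CUL2. A T0 minimum of 100 and no minimum each left CHTF18 with 1 higher in reference cells.

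With 1 culture left out, lower calls ranged from 3 to 33 for CHTF18 and 4 to 26 for CUL2 in niraparib cells, and from 0 to 18 and 0 to 15 in reference cells. Higher calls ranged from 1 to 11 and 0 to 10, and from 0 to 2 and 0 to 2. Differential calls were 0 in each such limma fit, with 87 to 145 partners of CHTF18 and 31 to 69 of CUL2 at an unadjusted p under 0.05. Among 45 named partner results, 30, 27, 6 and 8 no longer passed without 2022 replicate 1, 2022 replicate 2, 2023 replicate 1 and 2023 replicate 2. Profile likeness of the 2 genes was 0.41 in reference cells in second position. In niraparib cells it was 0.51 with pseudocount 10, with no minimum and with a straight line, 0.57 and 0.58 by position, 0.39 and 0.43 by sgRNA, and 0.457 to 0.467 with 1 culture left out. Apart from the smaller fits, the cause of these shifts was not tested.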
